A study of Mus musculus with 7 samples.

Results

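The 9 genes that take part in the control of oocyte meiotic arrest or join the cells of the follicle were followed in ovarian RNA of PAMH F3 and CNTR mice. They are Nppc, Npr2 and Npr3 (a natriuretic peptide and its receptors), Gpr3, Adcy3 and Pde3a (the making and breakdown of cAMP in the oocyte) and Gja1, Gja4 and Gjc1 (connexins 43, 37 and 45). Members were taken by name from the GENCODE M21 annotation of the mm10 mouse genome, which gave 1 identifier for each of the 9 among the 55487 gene identifiers of the count files. All 9 passed the filter on low counts that left 18779 genes for testing.

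The ovaries came from C57BL/6J females at diestrus on postnatal day 60. The 3 CNTR mice were first-generation offspring of dams given PBS in late pregnancy. The 4 PAMH F3 mice were the third generation of a line whose founding dams (F0) were given AMH, anti-Müllerian hormone, at 0.12 mg/kg per day from E16.5 to E18.5 of pregnancy, and they were not treated themselves. PAMH offspring were bred with unrelated PAMH males through F2 to F3. The CNTR mice were of the first generation only, so exposure and generation cannot be told apart in this design. The sample labels call the injections subcutaneous and the methods call them intraperitoneal. Whole dissected ovaries were sequenced, and fewer cells of a type cannot be told apart from less RNA per cell. Each library held between 32158174 and 35485021 reads on genes.

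The oocyte of a growing follicle waits in prophase of the first meiotic division because its cAMP stays high. GPR3, a receptor that is active without a ligand, drives adenylyl cyclase 3 (Adcy3) in the oocyte membrane, and PDE3A breaks the cAMP down. C-type natriuretic peptide (Nppc), secreted by mural granulosa cells, makes the guanylyl cyclase NPR2 on granulosa and cumulus cells produce cGMP, which passes into the oocyte through gap junctions and inhibits PDE3A. NPR3 lacks the cyclase and clears natriuretic peptides. Connexin 37 (Gja4) forms the channels between oocyte and cumulus cells, connexin 43 (Gja1) those among granulosa cells, and connexin 45 (Gjc1) is known from vessel walls and conducting tissue and is also found in the follicle. The luteinizing hormone surge lowers cGMP and ends the arrest.

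The active part of Nppc lies at the end of its coding sequence. Its last 22 codons before the stop codon, at chr1:86669667-86669732 on the minus strand of mm10, encode the mature peptide CNP-22, and the capitals mark its 2 cysteine codons, whose residues close the ring of the peptide.
Nppc, end of the coding sequence: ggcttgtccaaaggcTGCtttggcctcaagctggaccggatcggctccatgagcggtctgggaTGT

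The connexins are similar proteins, and the stretches below are shown because they bear on whether a read can be given to 1 connexin. Capitals mark the longest run of bases that the coding sequences of Gja1 and Gjc1 share, 17 bases, and the flanks are in lower case. The Gja1 stretch is chr10:56387746-56387802 on the plus strand and the Gjc1 stretch is chr11:102800923-102800979 on the minus strand of mm10.
Gja1: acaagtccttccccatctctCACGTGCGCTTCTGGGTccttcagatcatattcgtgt
Gjc1: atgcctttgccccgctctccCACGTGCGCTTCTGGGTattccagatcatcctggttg

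This run is shorter than the 50-base reads, as are the longest runs of 11 bases that Gja4 shares with Gjc1 and Npr2 with Npr3. No 50-base stretch of the longest coding transcript of Nppc, Npr2, Npr3, Gpr3, Adcy3, Gja1 or Gja4 was found in the transcripts of another gene. In Pde3a 22 of 12253 stretches (0.18%) and in Gjc1 2 of 2265 (0.09%) were.

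The 9 genes differed widely in level. Levels of different genes are given as CPM per kilobase, where CPM is the read count of a gene set against the TMM-scaled total of its library, and the length is the median of the gene's annotated transcripts. Gja1 stood highest, at a mean of 1682 CPM per kb over the 7 libraries (range 1192 to 2155), and its mean CPM lay at the 100th percentile of tested genes, rounded to a whole percent. Npr2 came next at 199.6 CPM per kb (169.2 to 226.7). The ranges of these genes did not overlap with each other or with the next gene in order. Gja4 at 11.02, Npr3 at 10.65, Nppc at 8.94, Adcy3 at 6.788 and Gjc1 at 6.144 CPM per kb formed a middle group in which each gene overlapped its neighbor. Pde3a, at 4.274 CPM per kb (3.786 to 4.836), lay below Gjc1 in all 7 libraries. Gpr3 was lowest at 0.8025 CPM per kb (0.4714 to 1.225).

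**Figure D1:**
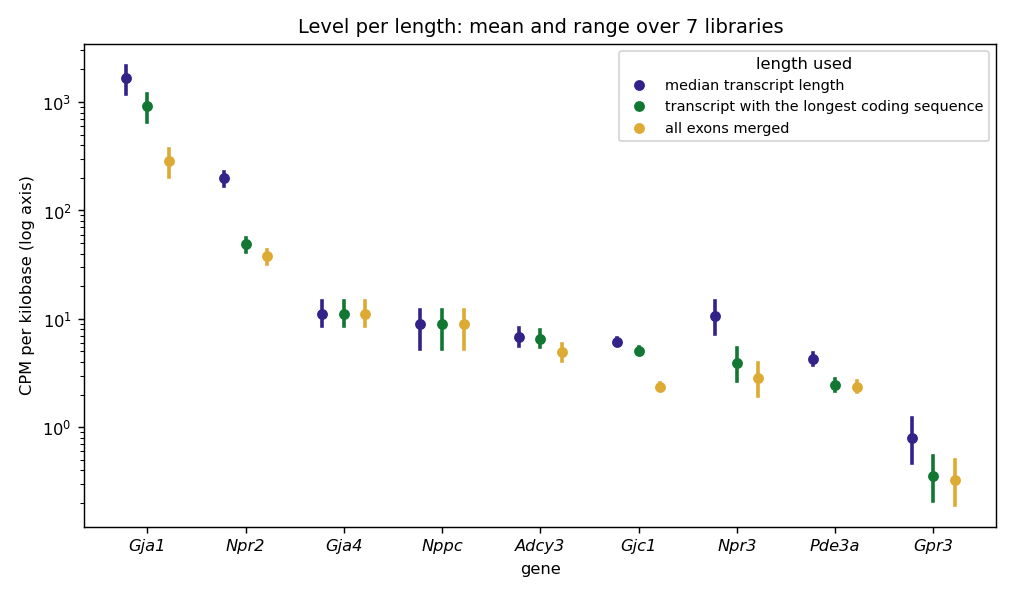
Levels of the 9 genes in CPM per kilobase on a log axis, as the mean (point) and the range (line) over the 7 libraries, for 3 measures of gene length. With the median transcript length Gja1 (1192 to 2155) and Npr2 (169.2 to 226.7) stand apart at the top and Gpr3 (0.4714 to 1.225) at the bottom, and Gja1, Npr2 and Gpr3 keep these places with the other lengths.

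The order at both ends did not depend on the length used, and the order in the middle did. With the length of the transcript that has the longest coding sequence, Gja1 (922.9 CPM per kb), Npr2 (48.65) and Gja4 (11.02) were again the highest and Gpr3 (0.3557) the lowest. Npr3 moved down to 3.915 CPM per kb, since this transcript has 6892 bases against a median of 2533. With the length of all exons merged (exon union length), Pde3a (2.369 CPM per kb) stood just above Gjc1 (2.337), and their ranges overlapped. Npr2 shows how much the choice matters for the size of a level. Its median transcript has 892 bases and its coding transcript 3660.

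Members of a signaling pair were present at unequal levels. With the coding transcript length, the ligand Nppc stood at 0.177 ± 0.0438 of its receptor Npr2 in CNTR (SD, n = 3) and 0.185 ± 0.0433 in PAMH F3 (n = 4). The signaling receptor Npr2 exceeded the clearance receptor Npr3 by 13.8 ± 2.16 times in CNTR and 12.5 ± 4.06 times in PAMH F3. Gja1 exceeded Gja4 by 80.6 ± 35.8 times in CNTR and 93.6 ± 21 times in PAMH F3. The size of such a ratio depends on the length. Gja1 over Gja4 was 147 ± 65.3 in CNTR and 171 ± 38.2 in PAMH F3 with the median transcript length, and 25 ± 11.1 and 29 ± 6.51 with the exon union length. Nppc over Npr2 was 0.0432 ± 0.0107 and 0.0451 ± 0.0105 with the median transcript length. The libraries of both groups overlapped in each of these ratios under every length used, and the ratios were not tested.

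No difference between PAMH F3 and CNTR was detected in any of the 9 genes. In CPM the libraries of both groups overlapped for all 9, while 4.25% of all tested genes had groups that did not overlap. In edgeR's quasi-likelihood test with 2 surrogate variables (covariates estimated from the counts), 0 of the 9 genes had an adjusted p of at most 0.05, and over all genes the share was 0% (0 of 18779). At an unadjusted p under 0.05 the count was also 0 of 9, against a background of 7.64% of tested genes. Without surrogate variables it was 0 of 9 against 3.95%. DESeq2 with the same surrogate variables called 109 genes (0.58%), of which 0 were among the 8 members that it gave an adjusted p. It gave none to Gpr3. The median log2 fold change of the 9 genes was -0.001, and that of all tested genes was 0.005.

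**Figure D2:**
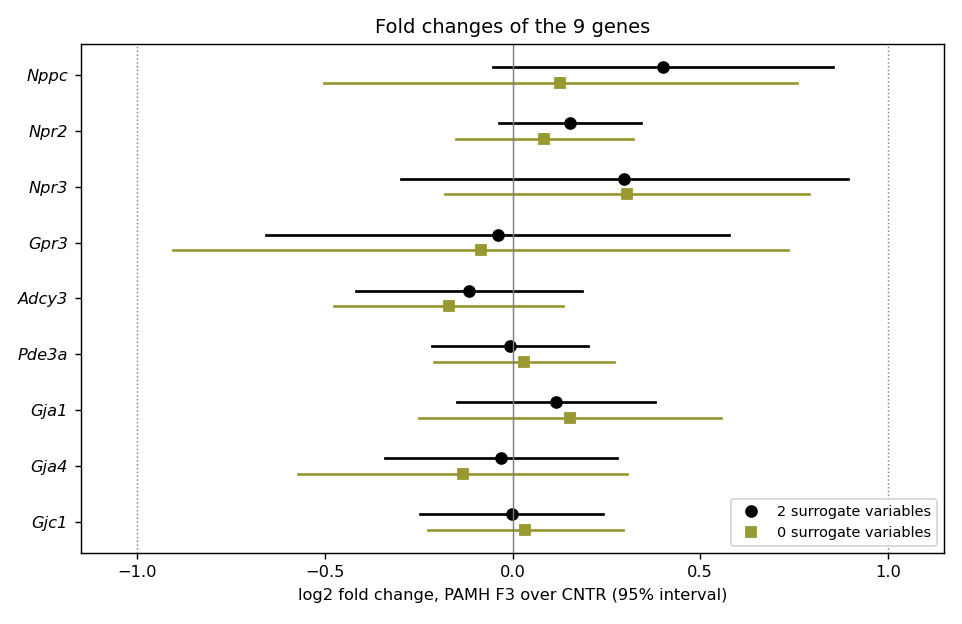
Log2 fold changes of the 9 genes, PAMH F3 over CNTR, with 95% confidence intervals from edgeR's quasi-likelihood fit with 2 surrogate variables and with 0. Every interval crosses zero and lies within 1 log2 unit of it.

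The intervals set what could have gone undetected. With 2 surrogate variables the 95% intervals ran from -0.65 (Gpr3) at the lowest to 0.89 (Npr3) at the highest, all within 1 log2 unit of zero, and 6 of the 9 lay within 0.5 of it. Without surrogate variables they ran from -0.90 to 0.79, and 4 of the 9 lay within 0.5. The narrowest intervals were those of Npr2 and Pde3a, and the widest those of Gpr3, Npr3 and Nppc.

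Nppc, the ligand, varied widely within both groups. Its CPM in CNTR 1 to 3 was 5.454, 10.23 and 10.86, and in PAMH F3 1 to 4 it was 6.461, 9.064, 10.66 and 12.48. CNTR 1 and PAMH F3 1 were low, and the other 5 libraries lay at 9.064 CPM or above. The means were 8.85 ± 2.96 CPM (SD, n = 3) and 9.67 ± 2.55 CPM (n = 4), a ratio of 1.09 (two-sided exact permutation p = 0.714). In edgeR the log2 fold change was 0.40 (SE 0.192, adjusted p = 0.689) with 2 surrogate variables and 0.13 without them. It was -0.14 when CNTR 1 was left out and 0.54 when PAMH F3 1 was (unadjusted p = 0.00808, adjusted p = 0.275 in edgeR), and in the latter fit 10.6% of all genes had an unadjusted p under 0.05. The within-group SD of Nppc, 0.466 on the log2 CPM scale, was at the 87.3rd percentile of tested genes, whose median SD was 0.204.

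Npr2, the receptor that makes cGMP, was steadier. It had 150.9, 179.7 and 185.7 CPM in CNTR and 161.9, 202.2, 176.1 and 190 CPM in PAMH F3. The lowest library was CNTR 1 and the highest PAMH F3 2, with the other libraries interleaved. The means were 172.1 ± 18.6 and 182.5 ± 17.4 CPM (exact permutation p = 0.457), and edgeR's log2 fold change was 0.15 (95% interval -0.04 to 0.34, adjusted p = 0.719). Without CNTR 1 it was 0.00.

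Npr3, the clearance receptor, showed the largest ratio of group means of the 9, 1.23, and this too was within the spread. CNTR libraries had 22.24, 27.6 and 21.54 CPM. PAMH F3 libraries had 36.81, 33, 18.38 and 29.32 CPM, so that 3 of the 4 lay above every CNTR library and PAMH F3 3 lay below them all. The exact permutation p was 0.314, and edgeR gave a log2 fold change of 0.30 (SE 0.253, adjusted p = 0.821). When PAMH F3 3 was left out the groups no longer overlapped and the log2 fold change was 0.56, with an unadjusted p of 0.00146 and an adjusted p of 0.473 in edgeR. With that library left out, 4.12% of all tested genes had every PAMH F3 library above every CNTR library and 6.34% had an unadjusted p under 0.05. The fold change was 0.15 without CNTR 3 and 0.21 without PAMH F3 1. With all 7 libraries the share of genes with PAMH F3 above was 1.85%.

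Gpr3, the receptor that keeps oocyte cAMP high, was read from between 17 and 49 counts per library, so counting error weighs more here than in the other genes. It had 1.085, 1.17 and 0.526 CPM in CNTR and 0.708, 0.723, 1.367 and 0.69 CPM in PAMH F3. PAMH F3 3 stood above the other PAMH F3 libraries, and CNTR 3 below the other CNTR libraries. The means were 0.927 ± 0.350 and 0.872 ± 0.330 CPM (exact permutation p = 0.857). EdgeR's interval for the log2 fold change, -0.65 to 0.58, was the widest of the 9 genes. Gpr3 shares 204 exon bases with Cd164l2 on the opposite strand, a gene at 4.222 to 8.034 CPM, and the strand setting of the counting is not given in the sources used here.

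Adcy3, the cyclase that GPR3 drives, had 27.87, 36.87 and 33.3 CPM in CNTR and 33.41, 26.02, 25.5 and 31.32 CPM in PAMH F3. PAMH F3 2 and 3 were below every CNTR library, whereas PAMH F3 1 was above CNTR 1 and 3. The log2 fold change was -0.12 (95% interval -0.42 to 0.19, edgeR's adjusted p = 0.869). It was -0.05 without CNTR 2 or without PAMH F3 2, and -0.03 without PAMH F3 3. Without CNTR 1 it was -0.29, with an unadjusted p of 0.037 and an adjusted p of 0.259 in edgeR, and in that fit 17% of all genes had an unadjusted p under 0.05. Adcy3 shares 1380 of its 6246 merged exon bases with Cenpo on the opposite strand, a gene at 19.86 to 27.53 CPM. Reads within the shared bases could be told apart only if strand was used.

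Pde3a, which breaks cAMP down in the oocyte, had nearly equal means of 29.8 ± 2.81 CPM in CNTR and 30.5 ± 2.68 CPM in PAMH F3. Single libraries had 30.5, 26.73 and 32.22 CPM in CNTR and 34.15, 30.54, 27.95 and 29.16 CPM in PAMH F3. The highest library was PAMH F3 1 and the lowest CNTR 2. EdgeR's interval for the log2 fold change was -0.21 to 0.20, and its sign changed with the number of surrogate variables. The expression of Gpr3 relative to Pde3a, per kilobase of coding transcript, was 0.156 ± 0.0688 in CNTR and 0.143 ± 0.0644 in PAMH F3, with overlapping libraries.

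**Figure D3:**
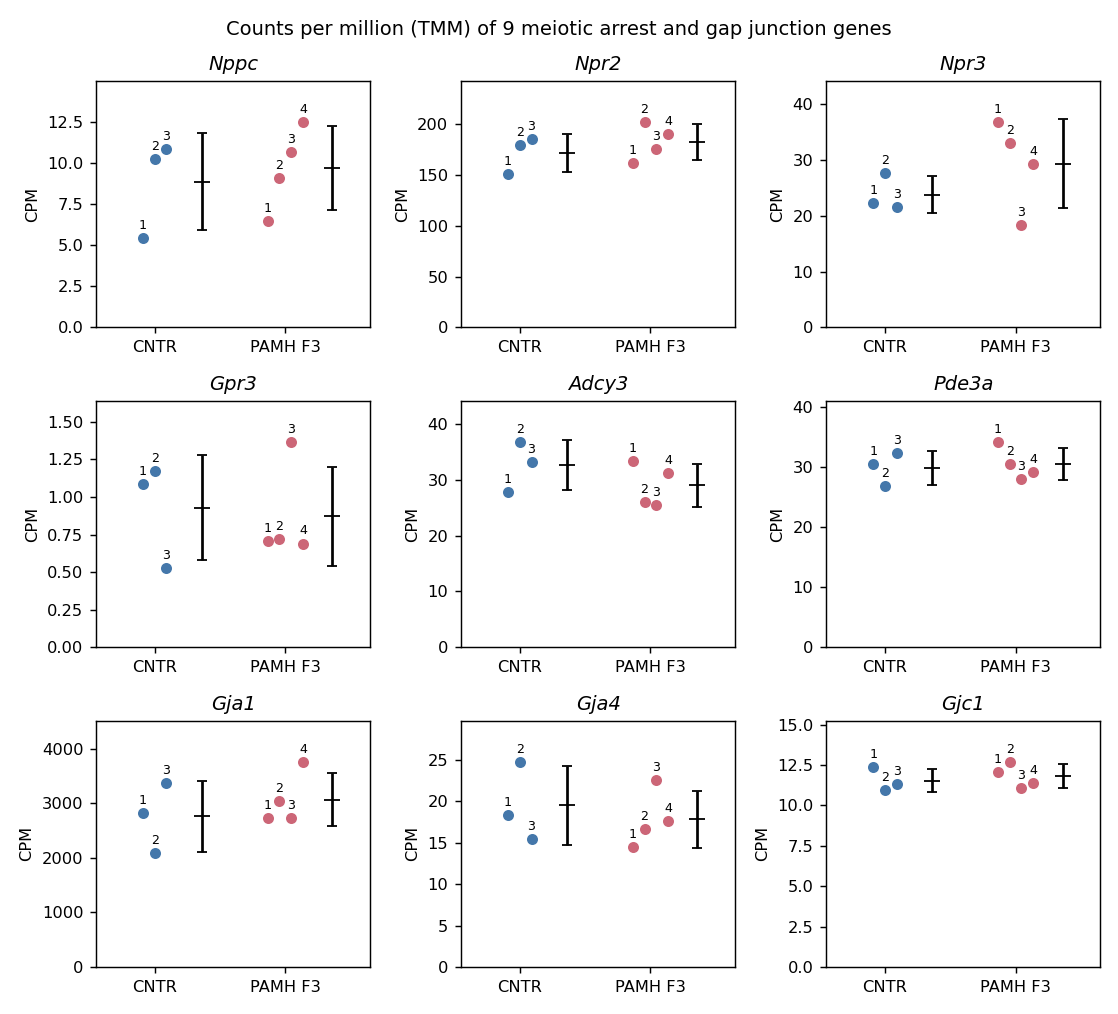
CPM of each of the 9 genes in the 3 CNTR and 4 PAMH F3 libraries, 1 panel per gene, with group means and SD. The libraries of both groups overlap in all 9 panels.

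Gja1, the connexin of granulosa cells, had by far the most reads, from 69341 to 119975 per library, so its spread is not one of counting. Its CPM was 2825, 2080 and 3377 in CNTR and 2733, 3047, 2732 and 3762 in PAMH F3. CNTR 2 was the lowest and PAMH F3 4 the highest, with the other 5 libraries between 2732 and 3377. The means were 2761 ± 650.9 and 3068 ± 485.5 CPM (exact permutation p = 0.457). EdgeR's log2 fold change was 0.12 (SE 0.112, adjusted p = 0.85). It was 0.02 without CNTR 2 and 0.20 without CNTR 1 or CNTR 3.

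Gja4, the connexin on the oocyte side of the junction with cumulus cells, had 18.41, 24.81 and 15.41 CPM in CNTR and 14.45, 16.65, 22.62 and 17.59 CPM in PAMH F3. CNTR 2 and PAMH F3 3 were the highest of their groups. The means were 19.55 ± 4.802 and 17.8 ± 3.46 CPM (exact permutation p = 0.571), and edgeR's interval for the log2 fold change was -0.34 to 0.28.

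Gjc1 was the steadiest of the 9 genes. Its CPM was 12.36, 10.95 and 11.3 in CNTR and 12.07, 12.71, 11.05 and 11.41 in PAMH F3. All 7 libraries thus lay between 10.95 and 12.71 CPM, and its within-group SD of 0.089 on the log2 scale was at the 12.7th percentile of tested genes. EdgeR's log2 fold change was 0.00 (95% interval -0.25 to 0.24, adjusted p = 0.998). At the other end, Gpr3 and Nppc had within-group SDs at the 90th and 87.3rd percentiles.

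The pathway around these genes was read from 4 lists of 61 further genes, of which 50 passed the filter. None had an adjusted p of at most 0.05 in edgeR (0 of 50). At an unadjusted p under 0.05 there were 1 higher (Gjc3) and 1 lower (Furin) in PAMH F3, against a background of 3.75% higher and 3.89% lower. The median log2 fold change over the 50 genes was -0.02.

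Among the 11 tested genes of the natriuretic peptide and cGMP list, the median log2 fold change was -0.095. Furin, a protease that cuts precursor proteins and pro-CNP among them, had 81.58, 144.9 and 89.13 CPM in CNTR and 82.71, 74.2, 79.03 and 65.5 CPM in PAMH F3. CNTR 2 stood far above the rest, and PAMH F3 1 lay above CNTR 1. The log2 fold change was -0.30 (SE 0.123, edgeR's unadjusted p = 0.0425 and adjusted p = 0.641), and the exact permutation p was 0.0571. Furin no longer had an unadjusted p under 0.05 without CNTR 2, or without PAMH F3 2, 3 or 4.

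Npr1, the receptor for the atrial peptide, was the 1 gene of the 50 whose groups did not overlap, against 2.4% of tested genes with PAMH F3 below. It had 189.9, 190.6 and 189.5 CPM in CNTR and 180.4, 171.4, 183.3 and 162.9 CPM in PAMH F3, with means of 190 ± 0.556 and 174.5 ± 9.23 CPM. The CNTR libraries were within about 1 CPM of each other. The log2 fold change was -0.12 (SE 0.061, edgeR's adjusted p = 0.708, exact permutation p = 0.0571). The ligands of this receptor were almost not seen. Nppa had 1 count in all 7 libraries together, and Nppb had 0 counts in each, which allows up to 0.0941 CPM at a limit of 3 counts in the library where that limit is highest.

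The list of oocyte cAMP and release from arrest held 20 genes, and 19 were tested. None had an unadjusted p under 0.05 (0 of 19), and the median log2 fold change was -0.02. It includes the protein kinase A subunits, the kinases Wee1 and Wee2 that hold CDK1 inactive, the Cdc25 phosphatases that release it, and cyclin B. The untested gene was Gpr12, a relative of Gpr3 known to serve the same role in rat oocytes, with 9 counts in all 7 libraries together and at most 0.124 CPM. Mos, a kinase of oocytes, had 8.136, 8.461 and 7.18 CPM in CNTR and 5.016, 7.438, 8.815 and 6.334 CPM in PAMH F3.

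Of 19 other connexins and junction partners 11 were tested, with a median log2 fold change of 0.04. Gjc3, connexin 29, is known from myelinating glia. It had 1.416, 2.19 and 4.457 CPM in CNTR and 2.607, 5.451, 4.436 and 5.424 CPM in PAMH F3. CNTR 3 lay among the PAMH F3 libraries and PAMH F3 1 among the CNTR libraries. The log2 fold change was 1.11 (SE 0.306, edgeR's unadjusted p = 0.00792 and adjusted p = 0.531) with 2 surrogate variables, and 0.74 (unadjusted p = 0.0938) without them. The exact permutation p was 0.2, and without CNTR 1 Gjc3 no longer had an unadjusted p under 0.05. Among the connexins left untested for low counts, Gja3 had at most 8 counts in a library, and Gjd2 and Gje1 had 0 in all 7.

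All 9 genes of the luteinizing hormone and EGF receptor list were tested, and 0 of 9 had an unadjusted p under 0.05. Their median log2 fold change was -0.005. Areg and Ereg, EGF-like ligands that the hormone surge induces in granulosa cells, were at 1.989 to 3.23 CPM and 2.092 to 2.561 CPM over the 7 libraries. Lhcgr, the receptor for luteinizing hormone, had 415.1, 435 and 522.7 CPM in CNTR and 501.7, 369.9, 308.1 and 445 CPM in PAMH F3, and these groups overlapped.

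**Figure D4:**
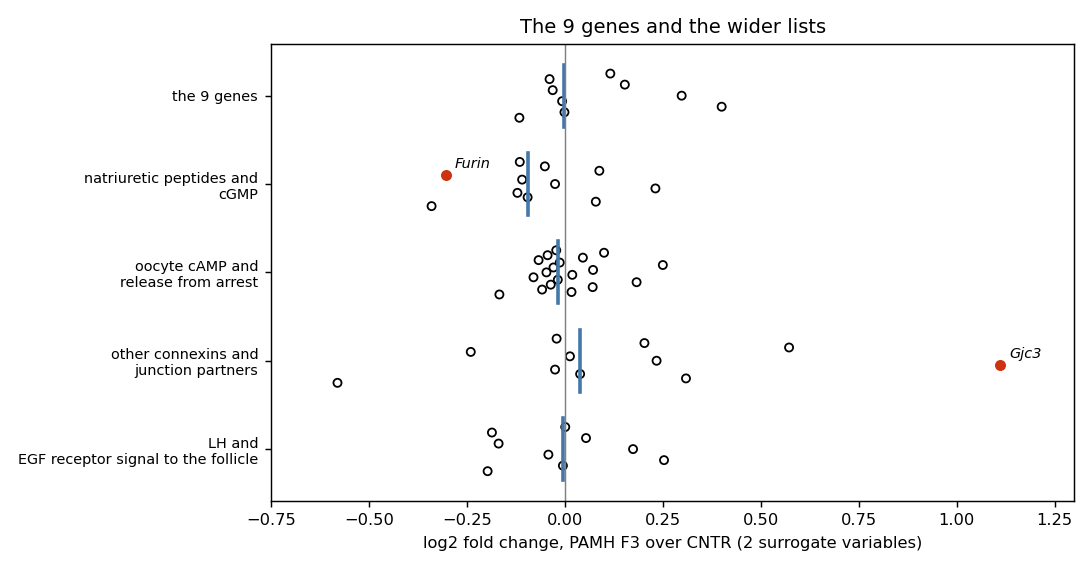
Log2 fold changes, PAMH F3 over CNTR, of the 9 genes and of the tested genes of the 4 wider lists, 1 point per gene, with the median of each list as a vertical bar. Filled points are the genes with an unadjusted p under 0.05, Gjc3 (1.11) and Furin (-0.30).

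The 9 genes were not seen to vary as a set from mouse to mouse, though with 7 libraries moderate correlations could go undetected. Over the 36 pairs of members, Pearson's r of log2 CPM across the 7 libraries ran from -0.948 to 0.85, and 15 pairs were above zero. Permutation tests over all orders of the 7 values gave 3 pairs an unadjusted p under 0.05 for r, 1 of which had an adjusted p of at most 0.05. No pair did for Spearman's rho (0 of 36).

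The 1 pair was Pde3a with Gja4, where libraries with more Gja4 had less Pde3a. Its r was -0.948 (exact permutation p = 0.00139, adjusted p = 0.05) and its rho was -0.964 (exact permutation p = 0.00278, adjusted p = 0.1). The r was -0.951 within groups. It was -0.892 without the 2 libraries farthest from the median in Pde3a, which were CNTR 2 and PAMH F3 1. Exons of Gja4 have 58.8% GC and those of Pde3a 49.5%. The slope of log2 CPM on GC content was 0.312 per 10% GC in CNTR 2 and between -0.128 and 0.049 in the other 6 libraries, and CNTR 2 had the most Gja4 and the least Pde3a. After a correction of the counts for GC content and length r was -0.625 (exact permutation p = 0.139, adjusted p = 0.838) and rho was -0.607. The cause of the relation was not tested.

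Gpr3 with Gja4 did not pass the adjustment, with r = 0.85 (exact permutation p = 0.0139, adjusted p = 0.25) and rho = 0.786 (exact permutation p = 0.048, adjusted p = 0.576), and r was 0.65 without the 2 farthest libraries. Both genes are GC-rich, at 61.5% and 58.8%, and with the GC correction r was 0.802. Nppc and its receptor Npr2 had r = 0.801 (exact permutation p = 0.0347, adjusted p = 0.417) and rho = 0.607 (exact permutation p = 0.167, adjusted p = 0.771). That relation rested on the 2 libraries farthest from the median in Nppc, without which r was -0.353.

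**Figure D5:**
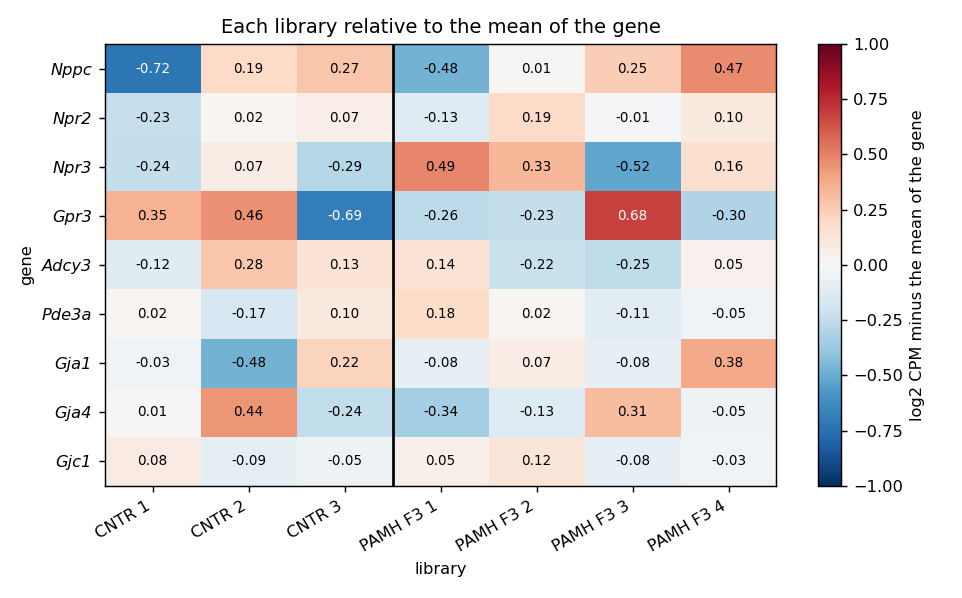
Heat map of log2 CPM of the 9 genes (rows) in the 7 libraries (columns), each value given as the difference from the gene's mean over the libraries, red above it and blue below. Gja4 is highest and Pde3a lowest in CNTR 2, and Gpr3 is highest in PAMH F3 3.

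For each member the 3 genes of most similar profile across the 7 libraries were taken from the other 18778 tested genes, as a description. For Nppc they were Alg12 (r = 0.993), Slc12a5 (0.98) and Obsl1 (0.969), and for Npr2 A230056P14Rik (0.97), Gm41505 (0.969) and Elk4 (0.968). For Npr3 they were Galnt5 (0.965), Msr1 (0.963) and Adamts12 (0.961). For Gpr3 they were Ctf1 (0.984), AA414768 (0.98) and A530072M11Rik (0.979), for Adcy3 Wasf2 (0.984), Elmsan1 (0.981) and Gdpd3 (0.98), and for Pde3a Gm37427 (0.99), Nbeal1 (0.983) and Cers4 (0.983). For Gja1 the first 2 were Gprasp1 (0.993) and Aldh3a2 (0.991). The 3 genes were for Gja4 Hoxc4 (0.993), Nol12 (0.988) and Eif3k (0.983), and for Gjc1 Selenov (0.965), Rgsl1 (0.963) and E330013P04Rik (0.96). None of the genes named here is a member or on the wider lists. The first of the 3 had an r of at least 0.965 for every member. These are the highest of 18778 values over 7 libraries, and the r that such a choice gives by chance was not worked out.

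Marker lists show what the dissected tissue held. All 13 oocyte markers were read in every library, and their summed level was 601.3, 555.1 and 528.1 CPM in CNTR and 416.4, 568.3, 639.6 and 612.2 CPM in PAMH F3. PAMH F3 1 was the lowest in the oocyte sum and PAMH F3 3, the library with the most Gpr3, the highest. Kit, which is on this list, was at 118.1 CPM in PAMH F3 3 and between 72.84 and 95.38 CPM in the other libraries. The top place of PAMH F3 3 rested on Kit, since PAMH F3 4 had the highest sum of the remaining markers. Zp2 and Gdf9 were higher in PAMH F3 4, and Oosp1 and Dppa3 were highest in PAMH F3 3. Pde3a was highest in PAMH F3 1 (34.15 CPM) and Gja4 in CNTR 2 (24.81 CPM), not in the library with the highest oocyte sum. The 11 granulosa markers summed to 4029, 4033 and 6425 CPM in CNTR and 4661, 5250, 4771 and 6655 CPM in PAMH F3. Most of this sum was Inha (1318 to 2130 CPM over the 7 libraries) and Inhba (936.2 to 2526 CPM). CNTR 3 and PAMH F3 4 were the highest of their groups in this sum and in Gja1. They were also the highest in Fshr, Cyp19a1, Hsd17b1, Inha, Inhba, Nr5a2 and Nap1l5, but not in Amh, Amhr2, Foxl2 or Slc18a2. The part of oocyte and granulosa content in the levels of the 9 genes was not tested.

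The sums of the other lists overlapped between the groups too. The 6 luteal markers summed to between 3303 and 5333 CPM in CNTR and between 2013 and 3495 CPM in PAMH F3, a ratio of means of 0.626. The smooth muscle and pericyte list ran from 1642 to 2386 and from 1282 to 2023 CPM, the endothelial list from 291.6 to 321.1 and from 232 to 327.2 CPM. Oviduct markers summed to between 2530 and 6336 CPM over all 7 libraries, most of it Ovgp1 (2394 to 6172 CPM), and adipocyte markers to between 74.22 and 571.7 CPM. Of the 77 single markers 1 had PAMH F3 above CNTR without overlap (Nap1l5 of the granulosa list, ratio of means 1.37) and 3 had it below (the luteal Sfrp4 at 0.513, the endothelial Cldn5 at 0.628 and the leukocyte Cd79a at 0.5). Over all tested genes the shares without overlap were 1.85% above and 2.4% below. Of the 76 markers tested, 3 were higher and 11 lower at an unadjusted p under 0.05 in edgeR, and 0 had an adjusted p of at most 0.05. The unadjusted shares over all tested genes were 3.75% higher and 3.89% lower. All 3 higher markers were of the granulosa list, in which 2 others were lower. The 11 include 3 of 6 luteal markers, Ptgfr with a ratio of 0.544 among them, and 3 of 8 endothelial markers. None of the 13 oocyte markers (0 of 13) was among them. Their part in the levels of the 9 genes was not tested. Of the theca and interstitial list only Insl3 was near the floor, with at most 5 counts in a library.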

How the data were processed

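Ovaries of 3 CNTR and 4 PAMH F3 mice were sequenced by the authors as stranded poly(A) libraries of single 50-base reads, 1 library per mouse. Per the labels and methods, reads were mapped to mm10 with STAR 2.5.3a and counted with HTSeq 0.6.1p1 in union mode on unique alignments. The deposited values are raw counts per gene. The Ensembl release and the strand setting are not given in the sources used here. Alignments outside genes were 5.82% to 7.37% of the counted total and those set aside as not unique 37.7% to 40.7%, and both stayed out of library sizes and tests.

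Counts were scaled by TMM over all genes. The 18779 genes kept by filterByExpr (minimum count 10) were compared by edgeR's quasi-likelihood test (version 4.0.16, under R 4.3.3) with 2 surrogate variables from svaseq (sva 3.50.0), as the study's model also held surrogate variables, and p-values were adjusted by Benjamini-Hochberg at 0.05. With these terms 3 residual degrees of freedom remained. Single values were compared by two-sided exact permutation over the 35 divisions of the libraries, whose smallest p is 0.0286. Positions, lengths and sequences came from GENCODE M21, which matched 55394 of 55487 identifiers. The exact permutation p-values measure the spread between these mice. Those of edgeR with 2 surrogate variables measure what is left of it after these terms, which were estimated from the same 7 libraries, took up a part.

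Alternatives changed the surrogate variables, the tool (DESeq2 1.42.0), the scaling, the filter, the length, a GC and length correction, the replicate block, and each library in turn. The fit with bias-adjusted deviances, the coding transcript length and the GC-corrected correlations were chosen after seeing the data. The scripts were tested on simulated data. No 2 libraries of a group differed as little as sampling noise would give (chi-square per degree of freedom 14.7 to 48.2).

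The 9 genes, the wider lists and the markers were chosen with earlier results of these data known. All 9 genes were named. Of the wider lists those with an unadjusted p under 0.05 or without overlap of the groups were named by rule, and Nppa, Nppb, Gpr12, Mos, Lhcgr, Areg, Ereg, Gja3, Gjd2 and Gje1 were named after their values were seen. Some items are not reported here.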

Additional observations from a re-analysis of the deposited data

Results flagged for a closer look

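Gpr3 in PAMH F3 3 stood apart from the other libraries of its group, at 1.367 CPM against 0.69 to 0.723 CPM. The gap to the nearest library was 0.951 of the group's range, beyond Dixon's critical value for 4 samples. It was the 1 such value among the 23 groups of 4 libraries looked at, and chance alone gives about 1 in 20. The library had 49 Gpr3 counts, the highest of the 7. It also had the highest summed oocyte markers, at 639.6 CPM, a place that rested on Kit. The part of either in the value was not tested.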

How the results depend on the processing

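None of the 9 genes was called at an adjusted p of at most 0.05 under any of the 19 alternatives (0 in each). DESeq2 with the same surrogate variables gave Gpr3 no adjusted p, so 8 could be called there. Over all genes, 0 became 109 with DESeq2 and the same surrogate variables, 6 with DESeq2 without them and 8 with no filter beyond 1 count. It ran from 0 to 39 when 1 library was left out (39 without CNTR 1, 37 without PAMH F3 1). Members with an unadjusted p under 0.05 were 0, but 1 (Nppc) without the filter, where 5.76% of all genes were, and 0 to 2 with 1 library left out, namely 1 without CNTR 1 (Adcy3, all genes 17%), 2 without PAMH F3 1 (Nppc and Npr2, all genes 10.6%) and 1 without PAMH F3 3 (Npr3, all genes 6.34%). Members whose groups did not overlap ran from 0 to 1, the 1 being Npr3 without PAMH F3 3. The causes were not tested.

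On the wider lists the 2 genes with an unadjusted p under 0.05 became 1 with 0 or 1 surrogate variables, with DESeq2 without them and with the GC content and length offset, and 1 to 6 with 1 library left out (6 of 50 without CNTR 1, 5 of 49 without PAMH F3 1, 1 without PAMH F3 2 or 4), to be read against the same shares of all genes. They became 3, with Egfr added, with 3 surrogate variables, median-ratio scaling, no filter or at least 10 counts in every library. With robust fitting they were Gjc3 and Egfr, so Furin was lost there. The order by CPM per kilobase changed for 5 members with the exon union length, 4 with the coding transcript length and 0 to 2 with 1 library left out (2 without CNTR 2 or PAMH F3 3). The 1 correlated pair became 0 with median-ratio scaling (adjusted permutation p = 0.0643) and 0 with the GC correction.

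Of 171 alternative fold changes of members 142 kept their direction and 29 turned, 16 of them with 1 library left out. Pde3a turned from -0.01 to 0.03, 0.027 and 0.003 with 0, 1 and 3 surrogate variables and to 0.032 with DESeq2 without them. Gjc1 turned from -0.001 to 0.034, 0.034 and 0.006 with these numbers and to 0.036 with DESeq2 without surrogate variables. With the GC offset Gpr3 was at 0.149 and Gja4 at 0.031. With 1 library left out the log2 fold changes ran from -0.139 to 0.536 for Nppc, 0.00 to 0.20 for Npr2, 0.147 to 0.561 for Npr3, -0.293 to -0.033 for Adcy3, 0.023 to 0.204 for Gja1, -0.048 to 0.059 for Pde3a, -0.255 to 0.134 for Gpr3, -0.145 to 0.054 for Gja4 and -0.056 to 0.091 for Gjc1.

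Whether the replicate numbers pair the samples cannot be settled from so few libraries. Deviations of same-numbered libraries correlated at 0.096, 0.097 and -0.248. CNTR 1 correlated best with its own number, and CNTR 2 and CNTR 3 with another. With a replicate block and 0 surrogate variables 0 genes were called, 447 had an unadjusted p under 0.05 in edgeR against 741 without the block, and 0 of the 9 members were among them. On the wider lists 1 gene (Gjc3) was. Pde3a and Gjc1 both turned to 0.05 under the block, and Gpr3 to 0.00, and Nppc was at 0.011.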
